A study of Mus musculus with 16 samples.

Results

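The 4 Hox clusters of the mouse were represented by 48 probe sets of 33 genes, out of 34945 probe sets of 18193 genes, counting probe sets that the platform table pairs with 1 gene symbol. Members were chosen by name, as all probe sets whose only symbol is Hoxa, Hoxb, Hoxc or Hoxd followed by a paralog number, which gave 16 probe sets of 9 Hoxa genes, 11 of 9 Hoxb genes, 11 of 7 Hoxc genes and 10 of 8 Hoxd genes. In 11 genes more than 1 probe set was present. A further 3 Hox probe sets carry several symbols and were left out.

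Hox genes encode homeodomain transcription factors whose order along a chromosome follows the order in which they pattern the body from head to tail. Genes with the same paralog number in different clusters descend from 1 ancestral gene, with low numbers at the anterior end and the highest numbers at the posterior end. Adult skin keeps part of this code: dermal fibroblasts of different body sites express different combinations of Hox genes, and some members also act in hair follicles and blood vessels.

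RNA of healing dorsal incisional wounds of wild-type mice was hybridised to 16 Affymetrix GeneChip arrays, 4 in each of 4 groups. Stressed wounds had been put under mechanical load, for 48 hours before harvest at day 6 or for 10 days before harvest at day 14, in a murine model of hypertrophic scarring, and unstressed wounds of the same days carried no load. All samples are labelled C57BL/6 and female, no other allele or agent is named, and per the design text each group at each time point came from 4 mice. The deposited values were read as log2 signals centred for each probe set, though the base of the log is not given. Differences between arrays can thus be read but not whether a transcript was detected. Levels of different probe sets cannot be set against each other. Because whole wound tissue was measured, fewer cells of a type and less RNA per cell cannot be told apart.

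The arrays fall into classes that the groups do not describe. Replicates 3 and 4 of stressed and of unstressed wounds at day 14 had Xist signals of 5.98 to 6.30, and a mean of 3 Y-linked genes between -3.97 and -3.53. The other 12 arrays (every array of day 6, and day 14 replicates 1 and 2 of stressed and unstressed wounds) had Xist between -0.53 and 0.81 and the Y-linked mean between -0.99 and 0.74, which goes against the label female. Xist is the RNA of the inactive X chromosome. Below, the 4 arrays are called high Xist and the 12 arrays low Xist, the loading differences of named genes at day 14 are also given within each class, and what else differs between the classes was not tested.

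At day 6, Hoxc10 and Hoxa9 had the largest differences of the family and read lower in stressed wounds, as did other genes of paralogs 9 and 10 in the Hoxa, Hoxb and Hoxc clusters and, of paralogs 5 to 8, Hoxa5 and Hoxa7. Of the 48 probe sets, 8 had 4 stressed arrays all below the 4 unstressed arrays by a mean difference of at least 0.5 on the log2 scale, and 0 had the opposite. Over all probe sets 2.26% met this rule in either direction and 1.04% with stressed arrays below. The 8 belong to Hoxa5, Hoxa7, Hoxa9 (2 probe sets), Hoxa10, Hoxb9, Hoxc9 and Hoxc10. The Hox family was proposed with loading differences of these arrays in view, that is, it was picked from the measured loading values, so these counts are a description and nothing is read from them.

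Hoxc10, which patterns the lumbar level and the hindlimb in mouse embryos, read -0.72, -0.83, -0.76 and -0.74 in the 4 stressed wounds of day 6 and 2.56, 3.37, 2.71 and 2.91 in the 4 unstressed ones. The stressed arrays lay within a narrow band far below the unstressed arrays, with group means of -0.76 ± 0.05 in stressed wounds and 2.89 ± 0.35 in unstressed wounds (SD, n = 4 each). The difference of -3.65 (SE 0.51) ranked 2 by size among all 34945 probe sets. Hoxa9, a gene of blood stem cells and of the posterior body, read -0.07, -0.98, -0.49 and -0.24 in stressed wounds and 2.95, 2.45, 2.35 and 2.49 in unstressed wounds (probe set 1455626_at). Its groups also did not overlap, and the difference of -3.004 (SE 0.73) ranked 3. The other Hoxa9 probe set, 1421579_at, showed the same direction at a smaller size, with -0.53, -0.40, -0.64 and -0.08 in stressed wounds and 0.31, 0.03, -0.03 and 0.10 in unstressed wounds.

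The remaining genes of this set differed by less. Hoxa10, which patterns the lumbar vertebrae and the uterus, read -0.22, -0.29, -0.37 and 0.12 in stressed wounds and 1.22, 1.41, 0.68 and 0.90 in unstressed wounds, a difference of -1.24 (SE 0.39). This holds for probe set 1431475_a_at, whereas 1446408_at differed by 0.05 (SE 0.13). Hoxa7, a central member of the Hoxa cluster, read -0.04, -0.39, -0.15 and -0.11 in stressed wounds and 1.35, 1.12, 0.82 and 0.90 in unstressed wounds, a difference of -1.22 (SE 0.17). In both genes every stressed array was below every unstressed array.

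Hoxa5, needed for lung and airway development in mice, read 0.10, -0.49, -0.34 and 0.12 in stressed wounds and 1.03, 1.11, 0.70 and 1.09 in unstressed wounds (1448926_at), a difference of -1.14 (SE 0.37), and its other probe set differed by -0.38. Hoxb9, a thoracic patterning gene, read -0.48, -0.57, -0.27 and -0.09 in stressed wounds and 0.0032, 0.73, 0.50 and 0.51 in unstressed wounds, a difference of -0.79 (SE 0.23). Here the groups were separated by less than 0.1, between stressed replicate 4 and unstressed replicate 1. Hoxc9, which specifies thoracic motor neurons, read -0.27, -0.13, -0.39 and -0.19 in stressed wounds and 0.37, 0.12, 0.39 and 0.31 in unstressed wounds, a difference of -0.54 (SE 0.18).

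**Figure D1:**
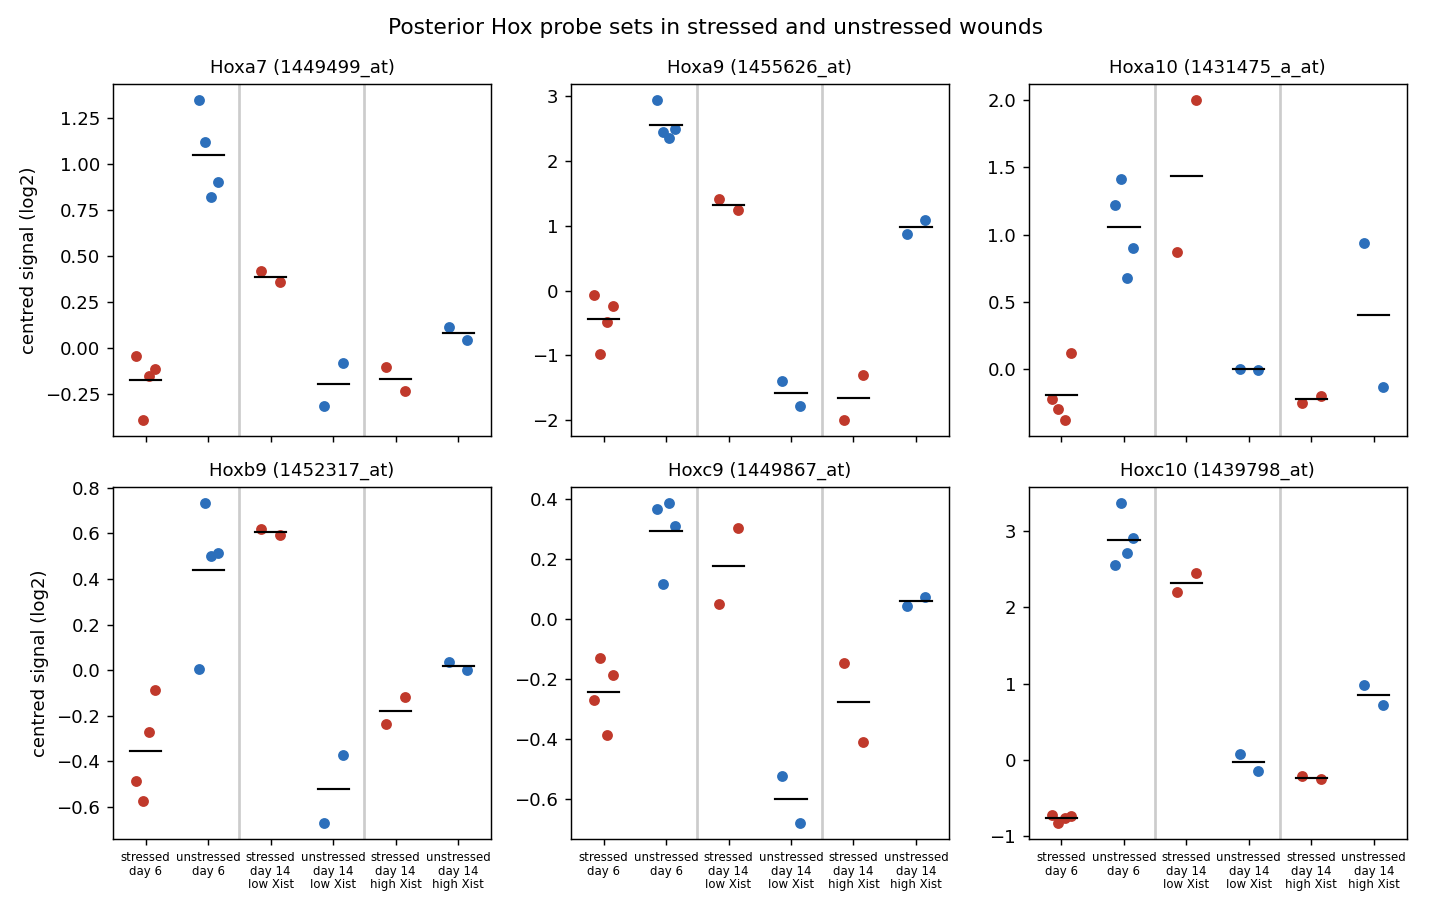
Each panel plots the centred log2 signal of 1 probe set on every array, with stressed arrays in red, unstressed arrays in blue and bars at the mean of each set. The 6 panels (Hoxa7, Hoxa9, Hoxa10, Hoxb9, Hoxc9 and Hoxc10) show the probe sets that were picked for the following order, so its presence in every panel is no separate result. At day 6 the stressed arrays lie below the unstressed arrays. At day 14 they lie above them in the low Xist arrays and below them in the high Xist arrays.

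By position in the clusters, 6 of the 9 probe sets of paralogs 9 and 10 were among the 8, against 2 of 15 of paralogs 5 to 8, 0 of 16 of paralogs 1 to 4 and 0 of 8 of paralogs 11 to 13. The Hoxd cluster gave 0 of 10, although Hoxd9 and Hoxd10 are paralogs of the genes above: Hoxd9 differed by -0.08 (SE 0.15) and Hoxd10 by -0.23 (SE 0.15). Among the genes at the posterior end, differences ran from -0.09 for Hoxc13 to 0.22 for Hoxa13. Hoxd3 was the 1 member higher in stressed wounds without overlap, with 0.35, -0.03, 0.05 and 0.20 in stressed wounds and -0.25, -0.12, -0.38 and -0.11 in unstressed wounds. With it, 9 of 48 probe sets did not overlap in either direction, against 6.16% of all probe sets. The median difference of the 48 probe sets was 0.03, against 0.00 over all probe sets.

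**Figure D2:**
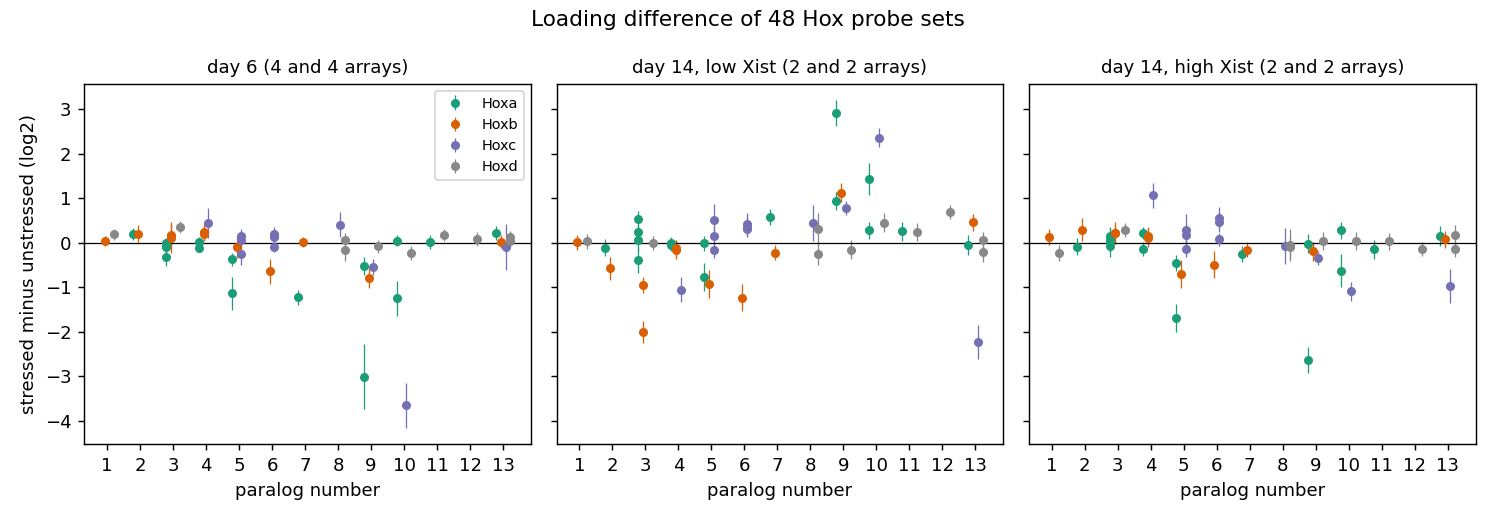
The log2 difference of stressed minus unstressed wounds is plotted for each of the 48 probe sets against its paralog number, coloured by cluster, with bars of 1 SE, for day 6 and for the 2 classes of arrays at day 14. The points far from 0 at day 6 are Hoxc10 and Hoxa9 at -3.65 and -3.004, and these probe sets stand at 2.35 and 2.91 in the low Xist arrays of day 14 and at -1.09 and -2.63 in the high Xist arrays.

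In limma's fit over all arrays, adjusted over all probe sets, Hoxc10 and Hoxa7 passed the threshold of 0.05 at day 6, that is 2 of 48 against 0.0258% of all probe sets (9 of 34945), and 0.0114% when only lower probe sets are counted. With only the day 6 arrays 3 members passed, against 16 of all 34945 probe sets. Leaving out any 1 array of day 6 left 0 members past the threshold, or 1 without unstressed replicate 2, with Hoxc10 between -3.76 and -3.49. Some marker lists of cell types leaned to 1 side as well, although 0 markers of any list passed the threshold at day 6. In the stressed wounds of day 6, 8 of 8 fibroblast markers lay higher (median difference 0.65). Their mean level ranged from 0.27 to 0.49 in stressed wounds and from -0.41 to -0.04 in unstressed wounds. All 8 macrophage markers were higher too, with a median of 0.37, and all 7 keratinocyte markers were lower, with a median of -0.24. All 8 endothelial markers were higher (median 0.16), 5 of 7 adipocyte markers were higher (0.19), and muscle markers were split, 4 higher and 4 lower (0.01). The part of these cell types in the Hox differences was not tested.

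The promoters of Hoxa7, Hoxa9 and Hoxa10 are shown because these neighbours in the Hoxa cluster moved together. Each line gives the 250 bases before a transcription start on the minus strand of GRCm38.p6, 5′ to 3′, as listed by RefSeq, with 2 starts for Hoxa10. Capitals mark matches, on either strand, to TATAAA, a core promoter motif, to TGATNNAT, bound by Pbx and Hox together, to TTTATG, bound by Cdx proteins, or to the core promoter motif CCAAT.
Hoxa7, chr6:52218574-52218823: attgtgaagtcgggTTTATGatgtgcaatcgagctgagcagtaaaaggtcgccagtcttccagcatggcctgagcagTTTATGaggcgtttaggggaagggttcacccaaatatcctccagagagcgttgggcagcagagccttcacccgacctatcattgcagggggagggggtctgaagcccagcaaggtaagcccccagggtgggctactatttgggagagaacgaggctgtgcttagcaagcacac
Hoxa9, chr6:52227371-52227620: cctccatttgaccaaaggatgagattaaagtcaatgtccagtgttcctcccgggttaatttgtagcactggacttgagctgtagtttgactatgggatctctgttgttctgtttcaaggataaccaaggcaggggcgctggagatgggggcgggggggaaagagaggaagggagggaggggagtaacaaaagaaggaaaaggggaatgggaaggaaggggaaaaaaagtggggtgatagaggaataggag
Hoxa10, chr6:52234940-52235189: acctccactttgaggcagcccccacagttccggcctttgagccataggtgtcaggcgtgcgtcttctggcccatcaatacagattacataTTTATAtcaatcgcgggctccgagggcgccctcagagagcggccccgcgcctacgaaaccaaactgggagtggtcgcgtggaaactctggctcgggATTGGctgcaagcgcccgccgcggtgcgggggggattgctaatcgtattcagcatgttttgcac
Hoxa10, chr6:52240855-52241104: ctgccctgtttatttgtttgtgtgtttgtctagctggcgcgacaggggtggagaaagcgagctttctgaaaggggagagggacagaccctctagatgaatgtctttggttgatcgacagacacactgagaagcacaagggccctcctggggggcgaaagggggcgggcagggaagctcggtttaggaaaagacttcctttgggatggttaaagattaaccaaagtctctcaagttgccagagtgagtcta

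The Hoxa7 promoter held 2 matches to TTTATG, and Cdx proteins are known to activate central and posterior Hox genes in embryos. The first Hoxa10 promoter held 1 match to TATAAA and 1 to CCAAT, and in the Hoxa9 promoter and the second Hoxa10 promoter these letters were not found. Of all 32851 promoters in the RefSeq table, 12.4% held TATAAA, 7.68% TGATNNAT, 10.8% TTTATG and 33.8% CCAAT. No arrangement was thus shared by the 3 genes in these windows, and a match is a description, not a site. Promoters were matched for 19 of the 33 Hox genes, and their GC content ran from 44.4% to 80.0% with a median of 59.2%, against 52.4% over all promoters. The Hoxa9 window had 49.6% GC with 3 CpG, and the first Hoxa10 window 59.2% with 20 CpG.

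At day 14, all 8 arrays together showed little of the day 6 difference. In limma's fit 0 of 48 members passed the threshold, against 7.35% of all probe sets, and those nearest to it were Hoxb5 (-0.81), Hoxa5 (-1.23), Hoxb6 (-0.86) and Hoxc13 (-1.60), which were lower in stressed wounds, and Hoxc6 (0.50, probe set 1427361_at), which was higher. None of these changed sign between the classes: in the low and the high Xist arrays the difference was -0.92 and -0.71 for Hoxb5, -0.77 and -1.69 for Hoxa5, -1.23 and -0.49 for Hoxb6, and 0.43 and 0.57 for Hoxc6. As a replicate block, the array numbers gave 2 members, both lower and 1 of them Hoxa5, against 2186 of all 34945 probe sets. Same-numbered arrays correlated at day 14 (all 4 over 0.1), but differently numbered arrays of the same class did too (0.07 to 0.23). Non-overlapping groups were found in 6 of 48 members, 5 higher and 1 lower in stressed wounds, against 10.1% of all probe sets (5.55% higher and 4.52% lower), and each of the 6 differed by less than 0.5. Hoxc10 differed by 0.63 (SE 0.51) and Hoxa9 by 0.14. For the difference between the loading effects, day 14 minus day 6, 0 of 48 members passed, against 0.00858% of all probe sets (3 of 34945), with 4.28 for Hoxc10 (SE 0.72) and 1.39 for Hoxa7 (SE 0.23).

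The small pooled values of Hoxc10 and Hoxa9 stand for opposite differences in the 2 classes of arrays. Hoxc10 read 2.20 and 2.44 in the low Xist stressed wounds of day 14 and 0.08 and -0.14 in the low Xist unstressed wounds. In the high Xist arrays it read -0.21 and -0.25 in stressed wounds and 0.99 and 0.72 in unstressed wounds. Stressed arrays were thus above unstressed arrays in the low Xist class, with a difference of 2.35 (SE 0.21), and below them in the high Xist class, with -1.09 (SE 0.21).

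Hoxa9 (1455626_at) read 1.41 and 1.24 in low Xist stressed wounds against -1.39 and -1.78 in low Xist unstressed wounds. In high Xist arrays it read -1.99 and -1.31 in stressed wounds against 0.87 and 1.09 in unstressed wounds. The differences were 2.91 (SE 0.29) in the low Xist class and -2.63 (SE 0.29) in the high Xist class, with 2 arrays per group in each. The other Hoxa9 probe set differed by 0.93 (SE 0.20) in the low Xist class and by -0.02 in the high Xist class, where its arrays overlapped.

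Hoxa10 (1431475_a_at) read 0.87 and 2.001 in low Xist stressed wounds against 0.0021 and -0.0021 in low Xist unstressed wounds, and -0.25 and -0.19 in high Xist stressed wounds against 0.94 and -0.13 in high Xist unstressed wounds. Hoxa7 read 0.42 and 0.36 in low Xist stressed wounds against -0.31 and -0.08 in low Xist unstressed wounds, and -0.10 and -0.23 in stressed against 0.12 and 0.04 in unstressed wounds of the high Xist class. Both genes follow the pattern of Hoxc10 and Hoxa9, with a gap under 0.1 for Hoxa10 in the high Xist class.

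Hoxb9 read 0.62 and 0.59 in low Xist stressed wounds against -0.67 and -0.37 in low Xist unstressed wounds, and -0.24 and -0.12 in high Xist stressed wounds against 0.04 and 0.0011 in high Xist unstressed wounds. Hoxc9 read 0.05 and 0.31 in low Xist stressed wounds against -0.52 and -0.68 in low Xist unstressed wounds, and -0.15 and -0.41 in high Xist stressed wounds against 0.04 and 0.07 in high Xist unstressed wounds. The order of the groups was the same as for Hoxc10 in every class, with smaller steps.

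Altogether 6 of 48 probe sets had unstressed arrays above stressed arrays at day 6, stressed above unstressed in the low Xist arrays of day 14 and unstressed above stressed in the high Xist arrays, each without overlap. They belong to Hoxa7, Hoxa9, Hoxa10, Hoxb9, Hoxc9 and Hoxc10, and 0 of 48 had the mirror image. Over all probe sets 0.132% had this order and 0.0973% its mirror image. The pattern was described after the values were seen, and the day 6 part of it is not independent of the way the family was proposed.

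**Figure D3:**
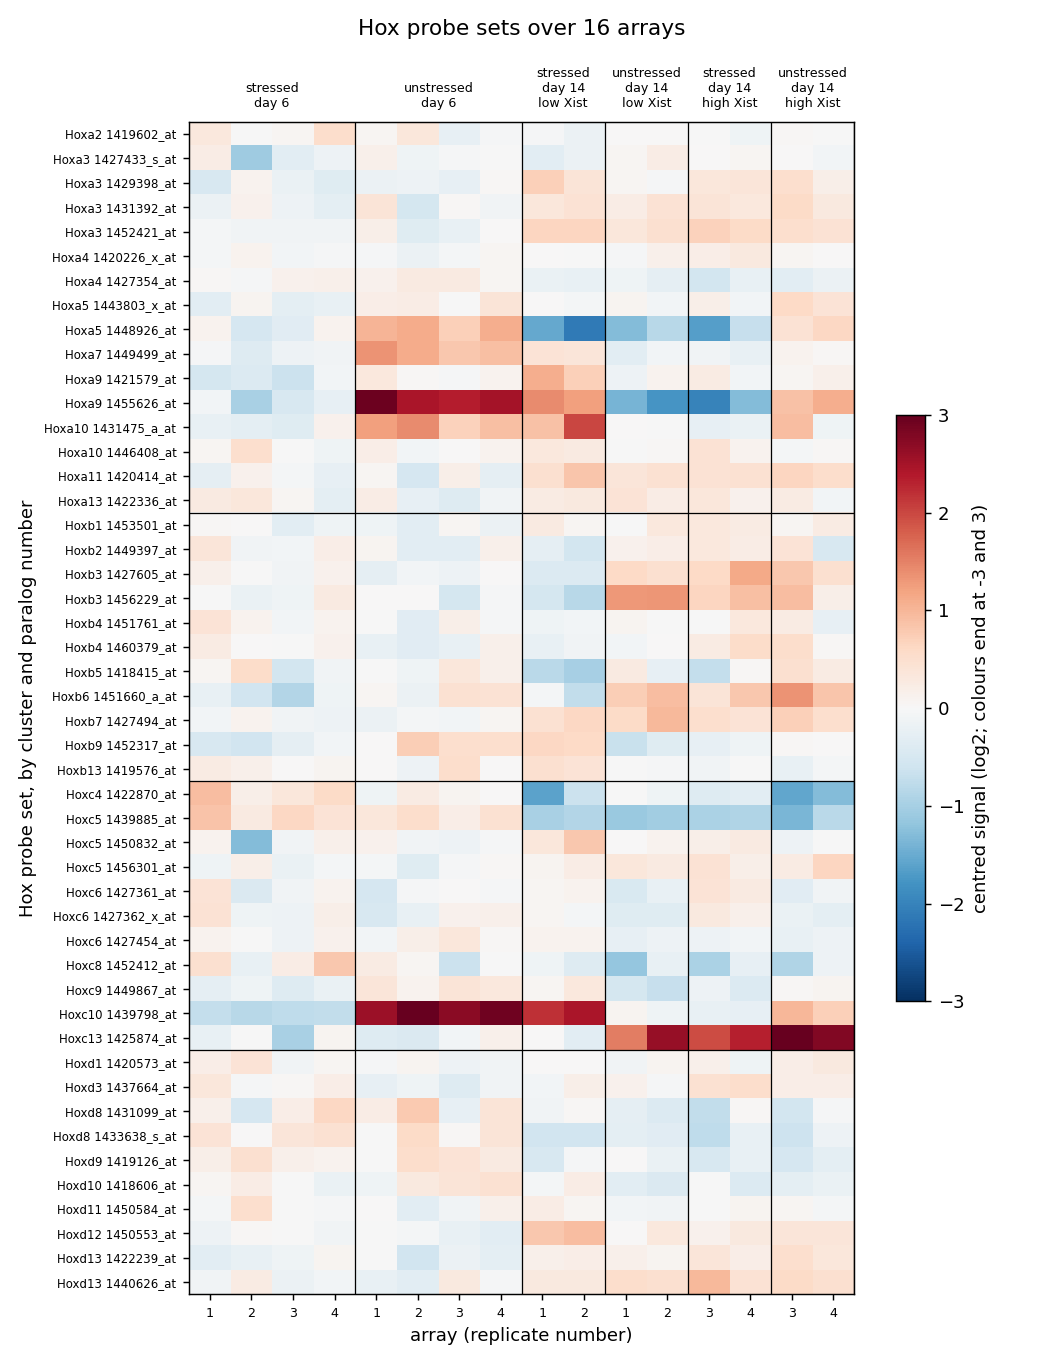
Colours give the centred log2 signal of each of the 48 probe sets (rows, by cluster and paralog number) on the 16 arrays (columns, by group, day and Xist class), with colours ending at -3 and 3. The rows of Hoxa9 (1455626_at) and Hoxc10 carry the strongest red in unstressed wounds of day 6, are red in low Xist stressed wounds of day 14, and Hoxc13 is red only in day 14 columns.

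Whether loading effects at day 14 differed between the Xist classes was tested in limma, in a model with 6 sets of arrays (group and day, with day 14 split by class). This comparison was chosen after seeing the data, including the opposite values described above. Its counts and p-values therefore describe the pattern and are not an independent test of it. The comparison is orthogonal to the loading difference over all day 14 arrays and to that of day 6, which does not undo this choice. Of 48 members 7 passed the threshold, 4 higher and 3 lower in the low Xist class, against 1.47% of all probe sets (0.535% higher and 0.93% lower). Hoxa9 had the smallest p of all 34945 probe sets, with a difference between the classes of 5.54 (SE 0.41, adjusted p = 7.34e-05), and Hoxc10 the next, with 3.44 (SE 0.30, adjusted p = 0.000314). Hoxc9 (1.12, SE 0.22, adjusted p = 0.0278) and Hoxb9 (1.32, SE 0.31, adjusted p = 0.0495) also passed, so that 4 of the 9 probe sets of paralogs 9 and 10 did. Hoxa10 (2.06, adjusted p = 0.0615) and Hoxa7 (0.83, adjusted p = 0.119) did not pass.

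The other 3 called probe sets lie at the anterior end and differ in the opposite sense. Hoxb3, which acts in blood vessels and in the hindbrain, read -0.54 and -0.83 in low Xist stressed wounds against 1.30 and 1.33 in low Xist unstressed wounds (1456229_at), and 0.64 and 0.91 in high Xist stressed wounds against 0.94 and 0.18 in high Xist unstressed wounds. The loading difference was -2.001 in the low Xist class and 0.22 in the high Xist class, where the arrays overlapped, and the classes differed by -2.22 (SE 0.35, adjusted p = 0.0111). Its other probe set differed between the classes by -1.17 (SE 0.26, adjusted p = 0.0421). Hoxc4, the most anterior Hoxc gene, read -1.62 and -0.65 in low Xist stressed wounds against -0.01 and -0.13 in low Xist unstressed wounds, and -0.39 and -0.32 in high Xist stressed wounds against -1.55 and -1.29 in high Xist unstressed wounds. For Hoxc4 the classes differed by -2.12 (SE 0.39, adjusted p = 0.0215).

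How firmly these calls stand differs between genes. Hoxa9 and Hoxc10 stayed past the threshold in all 6 other settings and without each of the 16 arrays, with adjusted p of at most 0.0157 and 0.0349. The other 5 probe sets each lost the call in at least 3 other settings. Among these was the replicate block, under which 2 of 48 members passed, against 94 of all 34945 probe sets. Without unstressed replicate 1, unstressed replicate 2 or stressed replicate 4 of day 14, 3 members passed, and 4 without stressed replicate 2. Over all probe sets, leaving out 1 array gave 93 to 1465 calls. Each class holds 2 arrays per group, and the class coincides with the replicate numbers 1 and 2 against 3 and 4, so the classes and any batch shared by those numbers cannot be told apart.

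Most marker lists kept 1 direction in both classes. All 8 muscle markers and all 7 adipocyte markers were lower in stressed wounds in both classes, with medians of -4.02 (low Xist) and -0.71 (high Xist) for muscle and -3.14 and -1.68 for adipocytes. All 8 macrophage markers were higher in both, with medians of 1.65 and 1.19, and fibroblast markers were higher in 5 of 8 in the low Xist class and in 8 of 8 in the high Xist class, with medians of 0.54 and 1.04. Endothelial markers were higher in 7 of 8 in each class, with medians of 0.77 and 0.72. Keratinocyte markers were mixed, higher in 3 of 7 in the low Xist class and in 5 of 7 in the high Xist class. Within the low Xist class 13 of 48 members passed the threshold, 8 higher and 5 lower in stressed wounds, against 15.1% of all probe sets (6.51% higher and 8.61% lower). Within the high Xist class 3 passed, all lower, against 2.49% of all probe sets, or 1.04% when only lower ones are counted.

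Between day 6 and day 14, averaged over stressed and unstressed wounds, Hox genes changed in both directions, led by a rise of Hoxc13 and a fall of Hoxc5. Of 48 probe sets 26 (54.2%) passed the threshold in limma, against 59.3% of all probe sets. The median absolute difference was 0.37, against 0.38 over all probe sets, so members changed no more often or further than probe sets in general. Of the 26, 15 were higher at day 14 (25.3% of all probe sets) and 11 were lower (34% of all probe sets). This comparison is orthogonal to the loading differences, and its p-values are given. Since all day 6 arrays are low Xist, it mixes time with class. With only the low Xist arrays 24 of 48 members passed, 13 higher and 11 lower, against 19905 of all 34945 probe sets (8326 higher and 11579 lower).

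Hoxc13, which activates hair keratin genes in the follicle, had the largest rise. It read 0.0074, -0.30, 1.97 and 2.33 in stressed wounds of day 14 and 1.53, 2.62, 3.46 and 2.77 in unstressed wounds of day 14, against -0.22, -0.0074, -0.97 and 0.08 in stressed and -0.40, -0.44, -0.08 and 0.16 in unstressed wounds of day 6. The 2 low Xist stressed arrays of day 14 remained in the range of day 6, while the other 6 lay above it. The rise averaged 2.03 (SE 0.37, adjusted p = 0.000263), and was 1.197 with only the low Xist arrays and 2.86 with only the high Xist arrays of day 14.

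A list of 10 hair keratins, chosen after seeing these values, was set beside it. All 9 measured members rose, with a median of 4.54, and their mean level per array was 4.53 to 6.15 in high Xist stressed wounds and 6.12 to 6.38 in high Xist unstressed wounds of day 14. In the low Xist arrays of day 14 it was 1.68 to 2.54 in stressed and 1.77 to 3.39 in unstressed wounds, and at day 6 it was -0.97 to -0.11 in stressed and -0.95 to -0.56 in unstressed wounds. The 2 low Xist stressed wounds therefore had raised hair keratins without raised Hoxc13. In stressed relative to unstressed wounds of day 14 Hoxc13 differed by -2.23 in the low Xist class and by -0.97 in the high Xist class.

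**Figure D4:**
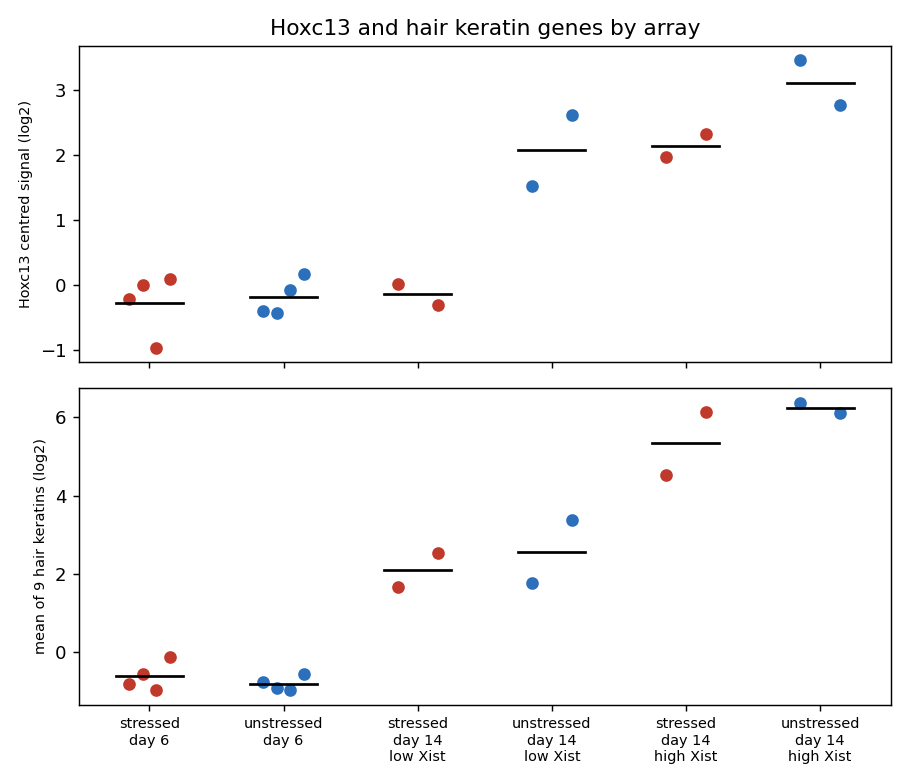
The upper panel plots the centred log2 signal of Hoxc13 on every array and the lower panel the mean of 9 hair keratins, with stressed arrays in red, unstressed arrays in blue and bars at the mean. The low Xist stressed arrays of day 14 lie at 0.0074 and -0.30 for Hoxc13 but at 1.68 and 2.54 for the keratins.

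Hoxc5, a cervical patterning gene, fell the most. Probe set 1439885_at read -0.97, -0.87, -0.95 and -0.90 in stressed and -1.12, -1.04, -1.38 and -0.81 in unstressed wounds of day 14, against 0.86, 0.28, 0.61 and 0.40 in stressed and 0.33, 0.53, 0.19 and 0.45 in unstressed wounds of day 6. All 8 arrays of day 14 lay below all 8 arrays of day 6, and it fell by 1.46 (SE 0.10, adjusted p = 7e-08). Its other probe sets did not share this direction: 1456301_at rose by 0.38 (adjusted p = 0.00248) and 1450832_at differed by 0.36 without passing.

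Hoxa5 fell by 1.30 (SE 0.26, adjusted p = 0.000627), with -1.54, -2.11, -1.65 and -0.69 in stressed and -1.29, -0.82, 0.42 and 0.62 in unstressed wounds of day 14. The high Xist unstressed wounds stood above the other 6 arrays of that day, and the change was -1.86 with only the low Xist arrays. Hoxc4 fell by 1.03 (SE 0.24, adjusted p = 0.00179). Its low Xist unstressed arrays of day 14 read -0.01 and -0.13, close to the -0.13 to 0.25 of unstressed wounds of day 6. The other arrays of day 14 read -1.62 to -0.32. Hoxa9 (1455626_at) fell by 1.29 (SE 0.52, adjusted p = 0.0428), a call that remained without 5 of the 16 arrays and was lost when any of the other 11 was left out, whereas its probe set 1421579_at rose by 0.42 (adjusted p = 0.0199). Hoxc10 did not pass (-0.33, SE 0.36, adjusted p = 0.436). That average joins opposite changes, -2.475 (SE 0.51) in unstressed wounds and 1.805 (SE 0.51) in stressed wounds. The falls of Hoxa9 (1455626_at) and Hoxa7 were also seen in unstressed wounds only. Hoxa9 changed by -2.86 in unstressed and 0.28 in stressed wounds, and Hoxa7 by -1.105 and 0.28.

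Smaller changes ran in both directions along the clusters. Among anterior genes, Hoxa3, needed for thymus and parathyroid development, rose in 3 of its 4 probe sets by 0.47 to 0.63, and Hoxb1, a hindbrain gene, rose by 0.32, while Hoxa4 fell by 0.38. Of paralogs 5 to 8, Hoxb7 rose by 0.66 (SE 0.08, adjusted p = 8.18e-06) without overlap of the days and Hoxb6 by 0.66 (SE 0.19, adjusted p = 0.00877), while 6 probe sets fell: those of Hoxc5 and Hoxa5 above, the 2 of Hoxd8 (-0.72 and -0.46), Hoxc8 (-0.63) and Hoxa7 (-0.41). Hoxd9 (-0.54) and Hoxd10 (-0.33) fell. Some of these calls were less firm. Hoxb6 and Hoxc8 passed in 6 of 8 other settings, with a rise of 0.35 to 0.97 for Hoxb6. Hoxd10 passed in 5 of 8 and Hoxd8 probe set 1431099_at in 3 of 7. At the posterior end 5 of 8 probe sets rose and 0 fell, while 25.3% of all probe sets were higher and 34% lower. Those that rose were Hoxc13, Hoxa11 by 0.65, a gene of the forearm and uterus, Hoxd12 by 0.50 and both probe sets of Hoxd13, the gene of the digits, by 0.56 and 0.45. Groups of 8 arrays did not overlap between the days in 6 of 48 members, against 18.6% of all probe sets.

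**Figure D5:**
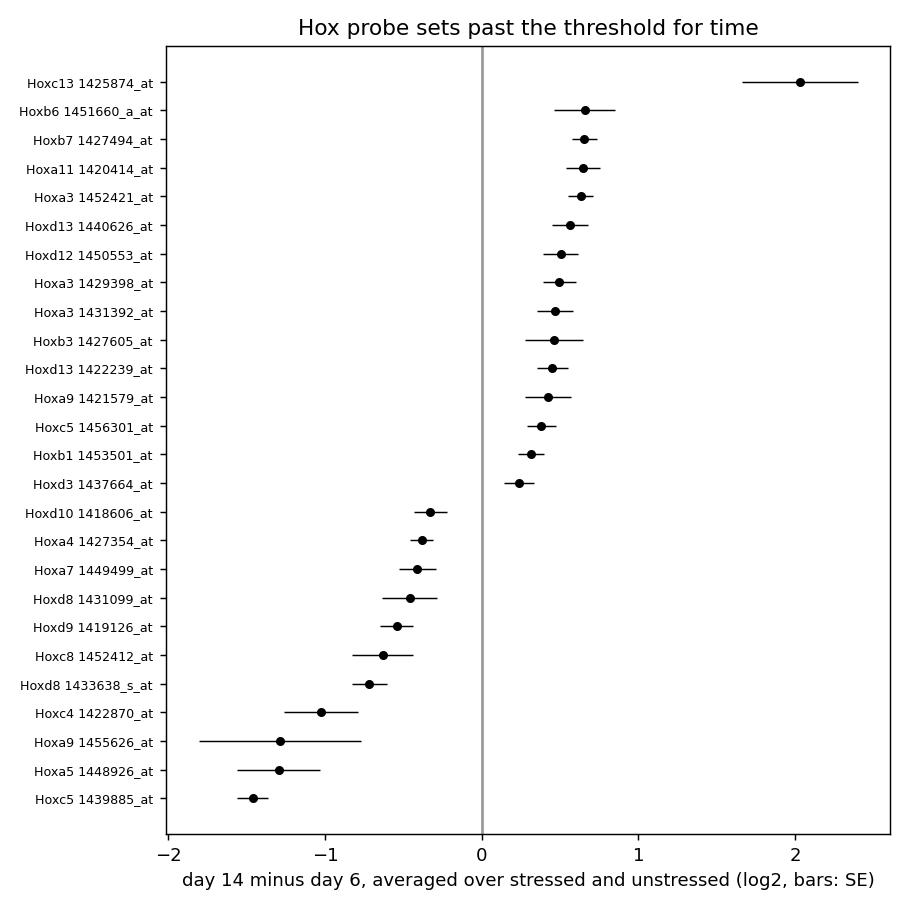
Points give the log2 difference of day 14 minus day 6, averaged over stressed and unstressed wounds, for the 26 Hox probe sets past the threshold, with bars of 1 SE. Hoxc13 stands apart at 2.03, and most other changes lie between -0.72 and 0.66.

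Genes that work with Hox proteins or set their chromatin were set beside the family. A list of 36 such genes (Pbx and Meis cofactors, Cdx activators, Trithorax and Polycomb proteins) was measured for 34 genes by 81 probe sets. At day 6, 0 of 81 passed, with a median of -0.02 against 0.00 over all probe sets, and Kdm6b, a demethylase of the Polycomb mark, had the smallest p (0.85, adjusted p = 0.44). At day 14, with 7.35% of all probe sets past the threshold, 2 of 81 were higher in stressed wounds, the cofactors Meis3 by 0.92 (adjusted p = 0.0042) and Meis2 by 1.16 (adjusted p = 0.0043), and 4 were lower, among them Wdr5, a subunit of Trithorax complexes, with -0.65, and Cbx7, a Polycomb reader, with -0.64. In the low and the high Xist arrays these 4 differed by 0.70 and 1.14 (Meis3), 1.15 and 1.17 (Meis2), -0.87 and -0.44 (Wdr5) and -0.63 and -0.64 (Cbx7). Within the low Xist class 6 of 81 were higher and 18 lower in stressed wounds, with a median of -0.17, against 6.51% and 8.61% of all probe sets. Within the high Xist class 2 were higher and 0 lower, with a median of 0.06, against 2.49% of all probe sets in either direction. Between the classes 2 of 81 passed, against 1.47% of all probe sets: the Polycomb subunits Suz12 (-1.23, adjusted p = 0.045) and Ezh2 (-1.63, adjusted p = 0.045). As above, the class comparison was chosen after seeing the data, so these values are a description. Over time 15 of 81 were higher and 22 lower at day 14, against 25.3% and 34% of all probe sets, led by Kmt2d, a methyltransferase that rose by 0.84, and by Meis2 (-1.01) and Meis1 (-0.94), which fell.

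Genes that flank or lie within the clusters gave 30 probe sets of 15 genes out of 23 listed. At day 6, 0 of 30 passed, and the smallest p belonged to Calcoco1, which lies beside the Hoxc cluster (-0.62, adjusted p = 0.74). At day 14, Hibadh, a metabolic enzyme gene near the Hoxa cluster, was lower in stressed wounds (-0.57, adjusted p = 0.011). Hibadh differed by -0.49 in the low Xist and by -0.65 in the high Xist arrays. Between the classes 1 of 30 probe sets passed, against 1.47% of all probe sets. It belongs to Cbx5, a heterochromatin protein gene near the Hoxc cluster, and differed by -1.59 (adjusted p = 0.025). The other Cbx5 probe sets did not pass and had both signs, with -0.52, -0.21, -0.15 and 0.36. Over time 9 of 30 were higher and 6 lower at day 14, against 25.3% and 34% of all probe sets. Evx1 and Evx2, homeobox genes at the posterior ends of the Hoxa and Hoxd clusters, rose by 0.35 (adjusted p = 0.0067) and 0.32 (adjusted p = 0.012).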

How the data were processed

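Wound RNA of 16 arrays was measured by the authors on Affymetrix GeneChip arrays, with 20 oligonucleotide pairs per gene and GeneSpring GX 11.0 as processing software, per the series design text. How background was corrected and probes were summarized is not given in the sources used here. In the series-wide table the deposited values are read as log2 signals centred per probe set by the authors. The base of the log and the level used for centring stay unknown, and natural logs would make each difference larger than printed. The number of arrays limits the precision.

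Probe sets were named with the platform table: 34945 of 45101 had 1 gene symbol, 932 several and 9224 none, and 64 controls were left out. No low-value filter was used. A group-means model was fitted to every probe set in R 4.3.3, using limma 3.58.1 with lmFit and eBayes, over all 16 arrays, two-sided, with Benjamini-Hochberg adjustment over the 34945 probe sets and a threshold of 0.05, and was tested on simulated data. Contrasts were loading at each day, their difference, time averaged over loading groups, and time within each loading group. A second model with 6 sets of arrays split day 14 by Xist signal (above or below 3). P-values of members are printed for time and for the difference between classes only, the latter as a description. Nothing beyond the design text's 4 mice says how replicates were obtained.

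The Hox family, the lists and the comparisons were chosen with earlier results of these data known. Named members are those without overlap and with a difference of at least 0.5 per contrast, those past the threshold for time, other probe sets of those genes, and paralogs of the 3 genes with the largest loading differences, plus up to 4 genes per contrast from each of the 2 other lists. Hoxb3, Hoxc4, Hoxb5, Hoxb6, Hoxc6, Hoxd3, Hoxa13, Evx1 and Evx2 were named outside this rule where it does not cover them, after their values were seen. Same-numbered arrays had correlated deviations at day 14 (0.25, 0.17, 0.26 and 0.14) but not at day 6 (-0.15, -0.42, -0.24 and -0.0013). At day 14, differently numbered arrays of the same Xist class gave 0.18, 0.23, 0.07 and 0.20. The correlations therefore follow the class and do not show that the numbers pair the samples. Alternatives were 1 probe set per gene, quantile normalization, array weights, the more variable probe sets, a replicate block, Xist class as a block, single days, single classes and leaving out each array. Figures were drawn in matplotlib 3.10.9 under Python 3.11.15.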

Additional observations from a re-analysis of the deposited data

Results flagged for a closer look

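In 31 named probe sets, the 4 arrays of each group were checked for 1 array far from the other 3 (Dixon's criterion), which chance alone meets in about 1 in 20 groups, and 6 of 124 groups met it. In stressed wounds of day 14 these were Hoxa3 (1429398_at) in replicate 1 at 0.72 (others 0.34 to 0.38), Hoxa4 (1427354_at) in replicate 3 at -0.54 (others -0.22 to -0.21) and Hoxa11 in replicate 2 at 0.84 (others 0.44 to 0.48). In unstressed wounds of day 14 they were Hoxa10 (1431475_a_at) in replicate 3 at 0.94 (others -0.13 to 0.0021) and Hoxd12 in replicate 1 at 0.018 (others 0.33 to 0.36). In unstressed wounds of day 6 it was Hoxb3 (1456229_at) in replicate 3 at -0.52 (others -0.03 to 0.02).

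The loading effect at day 14 differed between low Xist and high Xist arrays in 7 probe sets. Low minus high, the difference was 5.54 for Hoxa9 (1455626_at), 3.44 for Hoxc10, 1.32 for Hoxb9 and 1.12 for Hoxc9, and -2.22 (1456229_at) and -1.17 (1427605_at) for Hoxb3 and -2.12 for Hoxc4.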

How the results depend on the processing

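No result changed sign between called values. For loading at day 6, 2 members passed the threshold, against 7 with quantile normalization, 8 with array weights and 0 with the replicate block. Whether the numbers pair the samples is not known. Same-numbered arrays were not positively correlated at day 6, and at day 14 pairing cannot be told apart from the Xist class. Leaving out 1 array gave 0 to 2, against 0 to 11 over all probe sets. For loading at day 14, 0 passed, against 5 with array weights, 2 among the more variable probe sets (upper part by interquartile range), 2 with the replicate block, 4 with Xist class as a block, 14 with only the low Xist and 4 with only the high Xist arrays of day 14. In the same order, these settings gave 5149, 2064 (of 17472), 2186, 4085, 6548 and 800 calls over all probe sets, against 2567 in the main fit. Leaving out 1 array gave 0 to 7, the most without stressed replicate 4, against 948 to 4800 over all probe sets. For the difference between the days' loading effects, 0 passed. It was 2 with quantile normalization, 8 with array weights, 1 among the more variable probe sets, 2 with class as a block, 11 with only low Xist and 1 with only high Xist arrays of day 14, and 0 to 3 leaving out 1 array. Over all probe sets these were, in the same order, 4, 865, 13 (of 17472), 76, 2749, 83 and 1 to 333. For the difference between classes, 7 passed, against 2 with quantile normalization, 4 with array weights, 2 with the replicate block, 2 with only the day 14 arrays, and 3 to 7 leaving out 1 array. The time count of 26 was 19 to 28 elsewhere (27 with the replicate block, against 21115 of all 34945 probe sets). Over all probe sets, the class comparison gave 512 calls, against 3 with quantile normalization, 274 with array weights, 94 with the replicate block and 4 with only the day 14 arrays. Day 6 loading gave 9, against 496 with quantile normalization, 591 with array weights and 1 with the replicate block. The cause of these shifts was not tested. Quantile normalization was applied to values already centred.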
